A study of Mus musculus with 72 samples.

Results

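Of 17857 mapped reporter integrations, 678 lay on mouse chromosome 17, and all of them are described here. They were chosen by position alone, as every listed integration on this chromosome in mm9 coordinates, and they came from all 6 cell pools. There were 96 in mPGK-A, 115 in mPGK-B, 88 in mPGK-C, 129 in mPGK-D, 127 in mPGK-E and 123 in mPGK-F. The cells were EBRTcH3 mouse embryonic stem cells, which carry a tetracycline-controlled transactivator at the Rosa26 locus, grown with leukemia inhibitory factor and inhibitors of MEK and GSK-3. Every pool carried the same reporter, driven by the promoter of mouse phosphoglycerate kinase (mPGK), so no group had another treatment or genotype. Pools were started from cells sorted for low eGFP, grown for 5 days after sorting and 7 days as a small pool. Each pool was then divided between 2 cultures for 7 further days, and these are its technical replicates. Each pool had 12 of the 72 libraries, 2 PCRs per culture for RNA barcodes, DNA barcodes and mapping. P-values over pools therefore measure the spread between these 6 pools of a single cell line.

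TRIP, the assay used, inserts an identical reporter at many genomic sites, each copy marked with a random barcode, and reads all copies at once from RNA and DNA barcode counts. Since the promoter is the same everywhere, differences between copies are known as position effects, and they are usually discussed in terms of active and repressed chromatin domains. The reporters were delivered by piggyBac, a transposon that inserts at TTAA and is known to favour accessible chromatin. Chromosome 17 of the mouse carries the major histocompatibility complex (H-2), a dense cluster of immune genes with antigen-presenting class I and class II molecules, flanked by olfactory receptor genes. The complex lies within the stretch from 30 to 50 Mb that is compared with the rest of the chromosome below. No annotation of mm9 was used, so reporters are placed by coordinate and not by gene.

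Expression was taken as log2 of the share of RNA reads over the share of DNA reads of a barcode, averaged over both cultures, minus the median of its pool. A value of 0 is thus the typical reporter of the pool. A low value cannot tell less RNA in every cell of a clone from fewer cells with any RNA. The barcodes of the 5 highest and the 5 lowest reporters are printed because these mark the extremes of the landscape, first the 5 highest and then the 5 lowest, each named by pool and position. Where no RNA read was counted, the reporter was placed by its bound at a floor of 3 reads, so the order among the lowest is not settled.
mPGK-A reporter at 31962712: atggaggaaaccccaa
mPGK-F reporter at 79315378: ttaagttggactatat
mPGK-A reporter at 31972622: aggtcgtagggcactg
mPGK-A reporter at 71197498: tcaatttcggtggcgg
mPGK-A reporter at 37111798: acagcctcgaccttaa
mPGK-B reporter at 50008920: ctctaaatattccgtc
mPGK-F reporter at 13982282: cctgaatgtgtcttat
mPGK-C reporter at 14789199: taagcggaaactattc
mPGK-D reporter at 16644707: caccaagcattaagat
mPGK-E reporter at 22730657: catctcgcctcgtgct

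The sequence shared by all reporters comes from the promoter of Pgk1, which encodes the glycolytic enzyme phosphoglycerate kinase. RefSeq's 250 bases before the start of Pgk1, at X:106186850-106187099 on the plus strand of GRCm38.p6, are shown with CpG dinucleotides in capitals. The exact fragment in the reporter was not given in the sources used here.
Pgk1 promoter: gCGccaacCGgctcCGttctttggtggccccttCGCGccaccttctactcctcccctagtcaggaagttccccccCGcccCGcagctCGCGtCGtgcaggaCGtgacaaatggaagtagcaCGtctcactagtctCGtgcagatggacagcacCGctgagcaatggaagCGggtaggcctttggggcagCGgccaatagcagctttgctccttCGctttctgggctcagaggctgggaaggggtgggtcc
This window holds 17 CpG dinucleotides at a GC content of 62.8%, and 76.5% of 32851 promoter windows of the same length hold fewer, with a median of 6. It holds 1 GC box (GGGCGG on either strand), a motif found in 32.7% of those windows.

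The whole table summed to between 3386477 and 3693449 DNA reads and between 2880244 and 3508366 RNA reads per pool and culture, over listed barcodes only. A reporter on chromosome 17 had a median of 1728 DNA reads and 778 RNA reads over both cultures. The cultures ranked the reporters of the chromosome alike, with Spearman correlations between 0.908 and 0.962 over the reporters of a pool, and the SD between cultures of a single reporter was 0.69 log2 units. That SD was 0.44 for reporters with at least 200 RNA reads and 1.16 below, so low values are the less certain ones. No position was listed more than once, and 32 reporters of the chromosome carried a barcode that is also listed in another pool.

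The reporters of chromosome 17 spread widely around their pool medians, with quartiles at -1.31 and 1.85. Their mean was 0.18 ± 2.50 (SD over 678 reporters), their median was 0.35, and they spanned -10.10 to 5.94. In the comparison of RNA with DNA counts by edgeR's quasi-likelihood test, 296 reporters were higher than their pool median at an adjusted p below 0.05, 43.7% of the chromosome, where 36.8% of all 17857 reporters were. Another 203 were lower, 29.9% of the chromosome, where 33.8% of all reporters were, and 179 passed in neither direction. Over 16-fold above the median were 32 reporters, 4.72% on chromosome 17 and 2.38% in the rest of the genome. Over 16-fold below it were 32 as well, 4.72% on chromosome 17 and 6.55% in the rest of the genome.

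**Figure D1:**
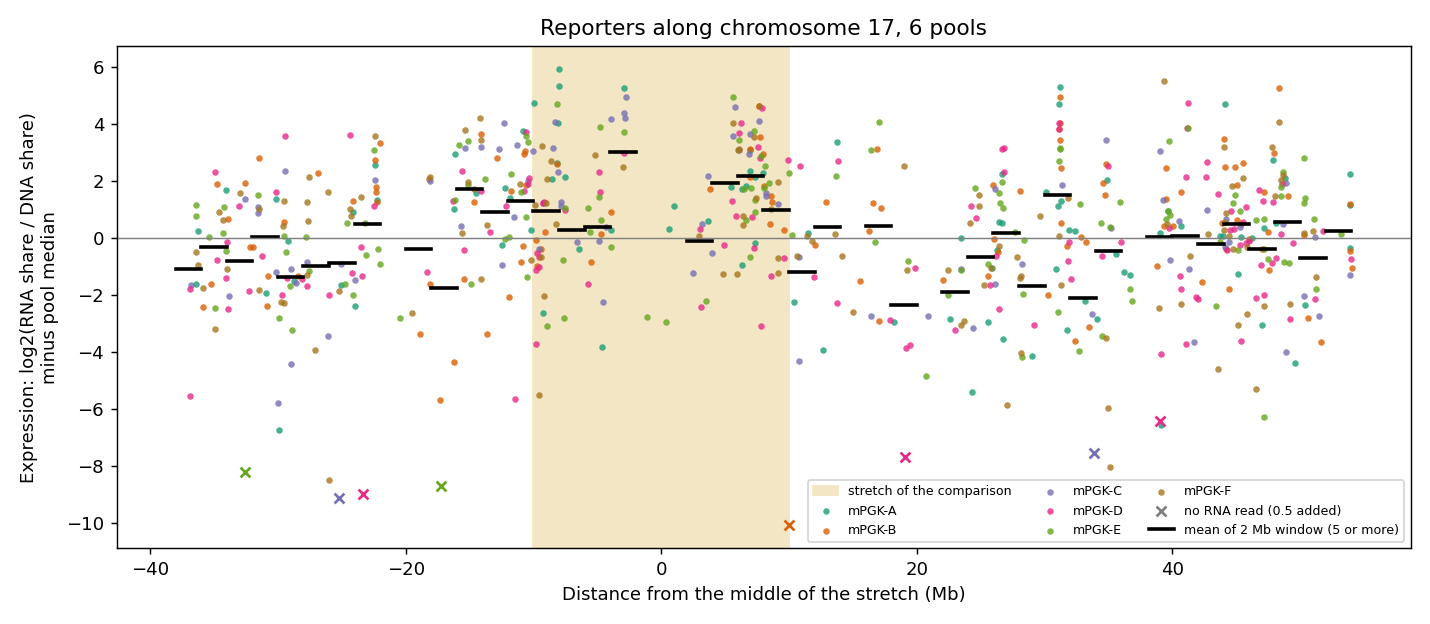
Expression of each of the 678 reporters (y, log2 of RNA share over DNA share minus the pool median) against the distance from the middle of the stretch in Mb (x). Points are coloured by pool, crosses are the 8 reporters without an RNA read, black bars are means of 2 Mb windows with at least 5 reporters, and the shaded band is the 20 Mb stretch.

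At the top, the mPGK-A reporter at 31962712 gave 13306 and 17005 RNA reads in its 2 cultures on 817 and 629 DNA reads, 61.4-fold above its pool median. The mPGK-F reporter at 79315378 stood 45.7-fold above its median, and 3 more mPGK-A reporters stood between 38.3-fold and 39.9-fold above theirs. Of these 5, 4 came from mPGK-A and 3 lay between 30 and 50 Mb. The adjusted p of each in edgeR's quasi-likelihood test was 2.6e-08 or smaller.

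At the bottom, the mPGK-B reporter at 50008920 had no RNA read in either culture on 2979 DNA reads. At a floor of 3 reads over both cultures it was at least 368-fold below its pool median. The mPGK-C, mPGK-D and mPGK-E reporters at 14789199, 16644707 and 22730657 also gave no RNA read, and were at least 188-fold, 172-fold and 140-fold below. These 3 and the mPGK-B reporter were the lowest that the RNA depth allows, and 4 more reporters of the chromosome had no RNA read. The mPGK-F reporter at 13982282 gave 3 reads in its first culture and 0 in its second, 321-fold below its median with a 95% exact counting interval of 110 to 1555. Such floors and intervals cover counting error only, since reads of a PCR are not independent molecules.

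Set against the rest of the genome, the mean of chromosome 17 was slightly higher in every pool. The mean difference was 0.42 in mPGK-A, 0.72 in mPGK-B, 0.54 in mPGK-C, 0.071 in mPGK-D, 0.48 in mPGK-E and 0.12 in mPGK-F. The reporters of chromosome 17 averaged 0.19 ± 0.25 over pools and those of the rest of the genome -0.20 ± 0.03 (SD, n = 6 pools). The difference of 0.39 ± 0.25 log2 units is 1.31-fold. An exact two-sided sign-flip permutation test over the 6 pools gave p = 0.03125, the smallest it can give. Adjusted over the 5 such tests of this chromosome by Benjamini and Hochberg it was 0.0521, so it misses the threshold of 0.05. With medians of reporters in place of means, the difference was 0.35 ± 0.33 and higher in 5 of 6 pools. The exact permutation p was then 0.09375, adjusted 0.156.

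Outside the stretch from 30 to 50 Mb, chromosome 17 and the rest of the genome lay close together. Without that stretch, the remaining 525 reporters differed from the rest of the genome by 0.033 ± 0.318 (SD, n = 6 pools), higher in 2 of 6 pools, with an exact permutation p of 0.8125. Without 24 to 50 Mb the difference was -0.18 ± 0.44, also higher in 2 of 6 pools, with an exact permutation p of 0.375. Both of these exclusions were chosen after the values were seen. In bins of 10 Mb, the means were -0.48 up to 10 Mb and -0.70 from 10 to 20 Mb, then 0.91, 1.01 and 1.51 in the next 3 bins up to 50 Mb. They were -0.75 and -0.86 in the bins from 50 to 70 Mb, lay at 0.049 and 0.19 from 70 to 90 Mb, and at -0.44 from 90 Mb on.

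The histocompatibility complex is only a part of the stretch from 30 to 50 Mb, and it was not compared on its own. On average, though not at every place within it, the stretch stood above the rest of chromosome 17 in all pools. Its 153 reporters averaged 1.73 in mPGK-A, 1.31 in mPGK-B, 1.98 in mPGK-C, 0.63 in mPGK-D, 1.02 in mPGK-E and 1.06 in mPGK-F. The 525 reporters in the rest of the chromosome averaged -0.23 in mPGK-A, 0.38 in mPGK-B, -0.48 in mPGK-C, -0.36 in mPGK-D, 0.058 in mPGK-E and -0.37 in mPGK-F. No pool mean of the stretch was as low as any pool mean of the rest. The difference within pools was 1.46 ± 0.63 log2 units (SD, n = 6 pools), 2.74-fold, between 0.93 in mPGK-B and 2.46 in mPGK-C. The exact two-sided sign-flip permutation test gave 0.03125, its smallest p, and 0.0521 after adjustment over the 5 tests, which misses the threshold. The stretch was put forward with earlier results of these data known.

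The stretch differed in both tails. In it 91 reporters, 59.5%, were called higher and 22, 14.4%, lower, where 39.0% and 34.5% were in the rest of chromosome 17. Over 16-fold above the median were 19 of 153 in the stretch, against 13 of 525 in the rest. Over 16-fold below it were 1 in the stretch, against 31 in the rest. All 8 reporters without an RNA read lay in the rest, 1.52% of its 525, where 1.03% of all 17857 reporters had no RNA read. At 0 of 153, a share of up to 1.96% in the stretch is allowed by counting, so no difference in this share was detectable. The median number of DNA reads was 1544 in the stretch and 1775 in the rest of the chromosome, and the SD between cultures was 0.57 in the stretch and 0.73 in the rest.

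**Figure D2:**
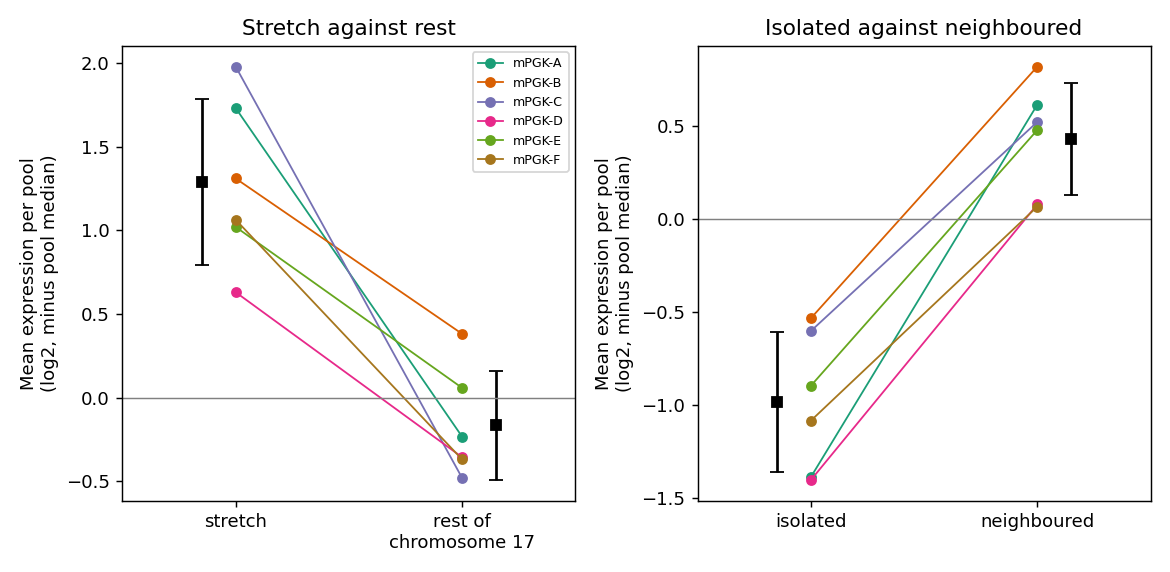
Mean expression per pool (y, log2, minus the pool median) of reporters in the stretch and in the rest of chromosome 17 (left), and of reporters with no other integration within 100 kb and those with at least 1 (right). Lines join the values of a pool, and squares with bars are the mean ± SD of the 6 pools; all lines of the left panel slope down from stretch to rest, and all lines of the right panel slope up from isolated to neighboured.

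The plot of pool means shows all 6 lines of a comparison running the same way, with mPGK-A and mPGK-C the steepest between stretch and rest. These 2 pools were also the highest in the first part of the stretch. From 30 to 40 Mb, reporters minus those outside the stretch gave 2.36 in mPGK-A, -0.19 in mPGK-B, 2.37 in mPGK-C, 0.50 in mPGK-D, 0.47 in mPGK-E and 1.10 in mPGK-F, with a mean of 1.10 ± 1.06. From 40 to 50 Mb the 6 pools lay closer together, between 1.35 in mPGK-D and 2.56 in mPGK-C, with a mean of 1.71 ± 0.44. The exact permutation p was 0.0625 for 30 to 40 Mb and 0.03125 for 40 to 50 Mb, and the difference between these parts was not tested. Without the windows from 36 and 46 Mb, the whole stretch exceeded the rest of chromosome 17 by 0.93 ± 0.73, higher in 6 of 6 pools. High values were not confined to the stretch, since the 61 reporters from 24 to 30 Mb averaged 1.36, where the 137 before 24 Mb averaged -0.65. Just inside the border at 30 Mb, 11 neighbouring reporters from 30174810 to 30617759 all lay below their pool medians, with a mean of -1.37.

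Windows of 2 Mb located the high and low places against all other reporters of the genome, with limma over pools and Benjamini-Hochberg adjustment over 1106 windows. On chromosome 17, 40 windows had at least 5 reporters from at least 3 pools. Of these 6 were higher, where 8.05% of all windows were, and 2 were lower, where 9.86% of all windows were. Without adjustment, 9 were higher and 5 lower at p below 0.05. Over the alternatives between 4 (no weights) and 10 (windows of 1 Mb) were higher, and between 0 and 4 were lower.

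The highest window began at 36 Mb and differed from the rest of the genome by 3.19 ± 0.62 log2 units (SE), 9.15-fold, with an adjusted p of 0.00102 in limma. Its pool values were 2.91, 1.08, 4.66, 3.18, 1.89 and 2.66 in mPGK-A to mPGK-F, on 2, 1, 4, 1, 2 and 1 reporters. All 6 pools were thus high, but 3 of them through a single reporter. The window held 2 clusters. Those from 36046721 to 36094020 gave -0.33 in mPGK-E, 4.17 in mPGK-C, 0.91 in mPGK-B and 0.26 in mPGK-A, of which only the mPGK-C reporter was called higher. The 7 from 37001463 to 37216056 lay between 2.48 and 5.26, came from 5 pools and were all called higher.

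Next came the window from 46 Mb, the best supported of the chromosome, with 40 reporters and a difference of 2.38 ± 0.33 (SE, limma, adjusted p = 5.9e-05). Its pool values were 1.68, 3.44, 3.68, 2.16, 1.94 and 2.51 in mPGK-A to mPGK-F, each on at least 4 reporters. Of its 40 reporters, 32 were called higher and 1 lower. The window from 44 Mb differed by 2.13 ± 0.65 (SE, limma, adjusted p = 0.0233) on 11 reporters. Its values were 1.93 in mPGK-A, 4.31 in mPGK-C, 0.81 in mPGK-D, 5.13 in mPGK-E and 1.32 in mPGK-F, with none in mPGK-B. Its call was lost without mPGK-C (adjusted p = 0.107) and without mPGK-E (adjusted p = 0.0801), a pool with a single reporter there.

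Before the stretch, 2 windows were called. The one from 24 Mb differed by 1.91 ± 0.42 (SE, limma, adjusted p = 0.00256), with pool values between 1.32 in mPGK-B and 2.48 in mPGK-C on 21 reporters. The one from 28 Mb differed by 1.47 ± 0.37 (SE, limma, adjusted p = 0.00669), between 0.75 in mPGK-F and 2.49 in mPGK-C on 28 reporters. Farther along, the window from 70 Mb differed by 1.67 ± 0.38 (SE, limma, adjusted p = 0.00296) on 28 reporters. Its pool values were 1.39, 2.29, 2.06, 1.94, 1.78 and 0.13 in mPGK-A to mPGK-F, so mPGK-F was near the rest of the genome. Without weights by integrations the calls from 28 Mb (adjusted p = 0.0585 in limma) and from 70 Mb (adjusted p = 0.051 in limma) were lost.

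**Figure D3:**
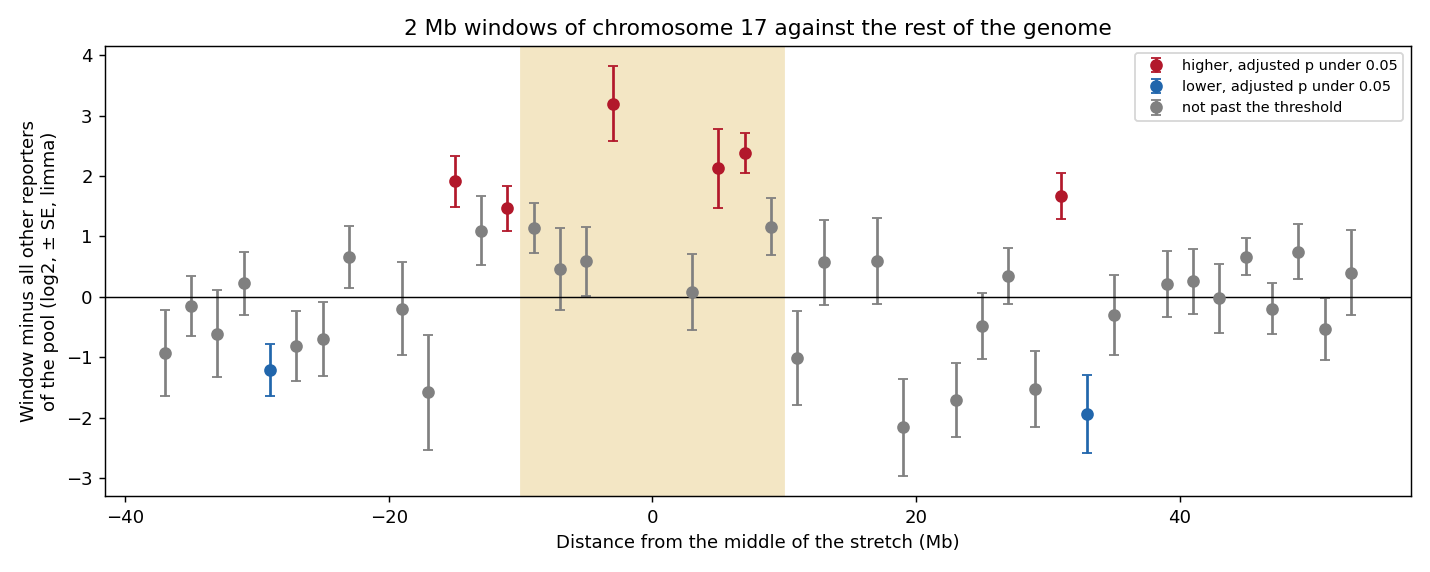
Difference between the reporters of each tested 2 Mb window and all other reporters of the pool (y, log2, mean over pools ± SE from limma) against the distance of the window's centre from the middle of the stretch in Mb (x). The 6 windows past the threshold on the upper side are red and the 2 on the lower side blue, and 3 of the red ones fall inside the shaded stretch.

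The low windows were less secure. The window from 72 Mb, directly after the high one from 70 Mb, differed by -1.94 ± 0.64 (SE, limma, adjusted p = 0.0348) on 11 reporters. Its values were -0.85 in mPGK-A, -1.56 in mPGK-B, -4.90 in mPGK-C, -1.24 in mPGK-D and -1.20 in mPGK-E. The mPGK-C value stood apart, and without mPGK-C the difference was -1.28 (adjusted p = 0.189). The call also ended without mPGK-B (adjusted p = 0.0714) and without mPGK-E (adjusted p = 0.0675). The window from 10 Mb differed by -1.20 ± 0.43 (SE, limma, adjusted p = 0.0499) on 23 reporters. Its pool values were -2.66, -0.23, -1.89, -0.11, -1.45 and -0.53 in mPGK-A to mPGK-F, all below the rest of the genome. That call was lost without mPGK-A, mPGK-C, mPGK-E or mPGK-F, at adjusted p values between 0.0608 and 0.16.

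Of the other low windows named by rank, none passed. The one from 58 Mb differed by -2.16 ± 0.80 (adjusted p = 0.0597 in limma) and the one from 62 Mb by -1.71 ± 0.61 (adjusted p = 0.0513 in limma). In the 62 Mb window all 6 pools were below the rest of the genome, between -3.01 in mPGK-D and -0.89 in mPGK-C. In the 58 Mb window mPGK-A, mPGK-D and mPGK-E were below it, at -2.80, -3.90 and -0.63, and mPGK-F was above it, at 0.87. The windows from 22 and 68 Mb differed by -1.57 ± 0.95 and -1.52 ± 0.63, with adjusted p values of 0.267 and 0.0891 in limma. The window from 22 Mb was split, with 2.12 in mPGK-A and 1.49 in mPGK-D beside -4.87 in mPGK-B and -3.51 in mPGK-E. The window from 30 Mb, at 1.14 ± 0.41, narrowly missed a call on the high side (adjusted p = 0.0503 in limma), with mPGK-D at -0.44 and mPGK-A at 3.30.

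Runs of at least 8 neighbouring reporters on the same side of their pool median were listed as a description, since their values chose them. There were 11 runs above the median with 116 reporters and 6 below with 65 reporters. Runs above were short, with a median length of 450 kb, and runs below were long, with a median of 1247 kb. Each run drew on 3 to 6 pools, and no pool gave more than 5 reporters to any run. Of the runs above, 5 lay in the stretch, and of the runs below, 1 did.

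The run above with the most reporters had 15 between 31034761 and 32171508, with a mean of 2.96, and all 15 were called higher. It drew 5 reporters each from mPGK-A and mPGK-C, 3 from mPGK-F, 1 each from mPGK-B and mPGK-E, and none from mPGK-D. The most compact run packed 12 reporters of 5 pools into 135 kb from 71087999 to 71222955, with a mean of 3.60 and 11 called higher. In the stretch, 10 reporters from all 6 pools ran from 36052489 to 37216056 with a mean of 3.33. Farther on, 3 runs of 10, 9 and 12 reporters lay between 46298861 and 48555052, with means of 1.76, 3.26 and 1.98.

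The longest run below spanned 4.60 Mb, from 59072185 to 63671162, with 18 reporters from all 6 pools and a mean of -2.49. Of these 12 were called lower. The run with the lowest mean, -3.64 ± 3.27 (SD), lay from 13958641 to 15215617, with 8 reporters from 5 pools, all called lower. That mean rests in part on values near the floor. These were an mPGK-C reporter at -9.13 with no RNA read and an mPGK-F reporter at -8.50 with 3 reads. Within the stretch, 11 reporters between 30174810 and 30617759 were below their medians, with a mean of -1.37 and 4 called lower. Of these 5 came from mPGK-D and 3 from mPGK-B, while mPGK-A and mPGK-E had none there. Of the pools that were highest from 30 to 40 Mb, mPGK-A thus had none in this run and mPGK-C had 1. Whether that bears on their means was not tested.

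Steps along the chromosome were found from the mean of the next 10 reporters minus that of the 10 before, also a description with no test. The highest step up lay between 71056382 and 71087999, 31.6 kb apart, with -1.15 ± 1.93 before and 3.42 ± 1.40 after (SD, n = 10 reporters each). Its partner down, between 71222955 and 71258181, had 3.93 ± 0.86 before and 0.18 ± 1.74 after. These 2 steps enclose the compact run, and 4 of the 5 pools present on both sides showed the step up. Only 3 pools were present on both sides of the step down, and all 3 showed it. After it, 6 of the 10 reporters were above their medians. The step up between 16644707 and 16782522 was present in all 6 pools, with means of -1.42 before and 1.84 after, where 3 of the 10 reporters before and 9 of the 10 after were above their medians. Further steps up lay between 79087944 and 79294314 (4.02), between 87762625 and 87769328 (3.35), and inside the stretch between 31441083 and 31541540 (3.22).

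**Figure D4:**
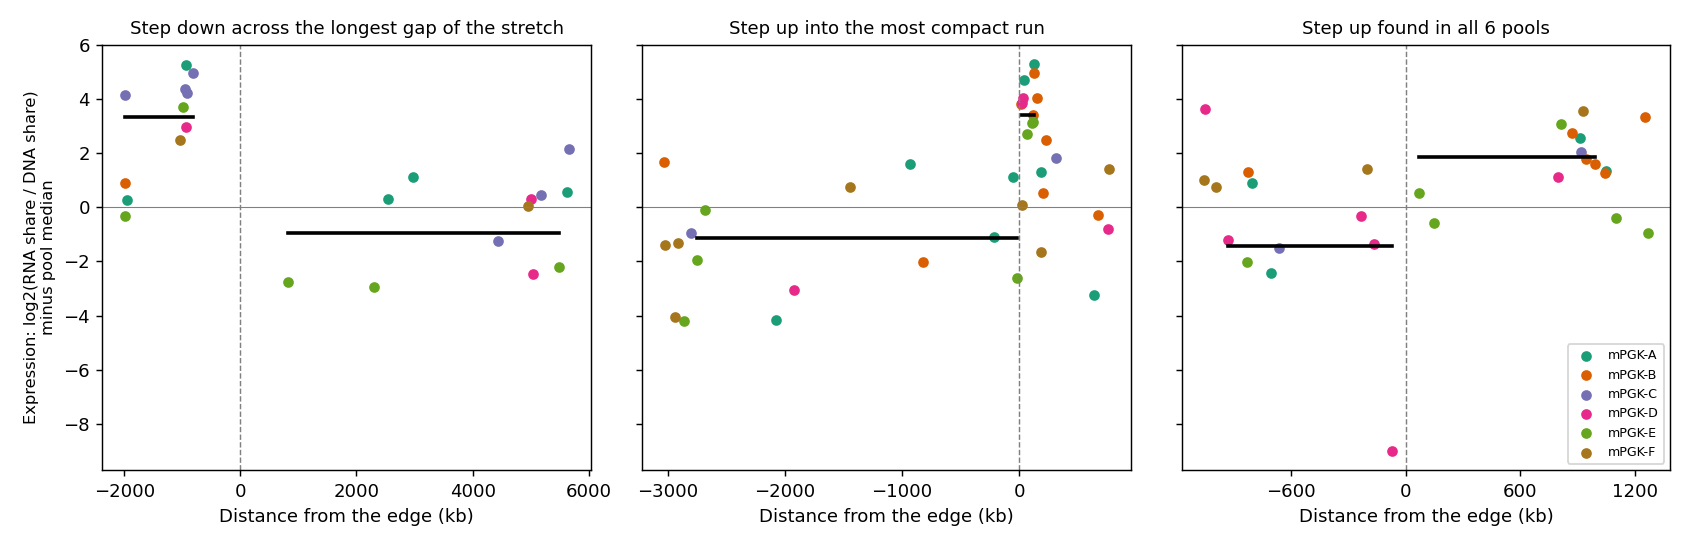
Expression of single reporters (y, log2, minus the pool median) against the distance from 3 steps in kb (x), coloured by pool. Black bars are the means of the 10 reporters on either side, 3.33 and -0.94 in the left panel, -1.15 and 3.42 in the middle, and -1.42 and 1.84 on the right.

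The largest step down, -4.27, lay between 37216056 and 38861470, at the end of the high cluster in the stretch. The mPGK-C reporter at its left stood at 4.96 with 60694 RNA reads, and the mPGK-E reporter at its right stood at -2.76 with 204 RNA reads, with comparable DNA counts of 5428 and 4060. The 10 reporters before averaged 3.33 ± 1.67 and the 10 after -0.94 ± 1.55, and all 5 pools present on both sides stepped down. All 10 before were above their pool medians, and 5 of the 10 after still were. Those after had a median of -0.60 and were spread over 4666 kb, so the step ends nearer the typical level than its size implies. Since 1.65 Mb without any reporter separates both sides, where within that gap the change lies was not measured. The step down between 17983253 and 19594964 (-3.60) likewise spanned a gap, of 1.61 Mb. Those between 32121039 and 32171508 (-3.24) and between 57168317 and 57897892 (-3.20) rested on only 3 pools and 1 pool present on both sides.

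Integrations covered 90.9 Mb, from 3119818 to 94029319, at 7.46 per Mb, with a median distance of 60.4 kb between neighbours. The 5 longest gaps made up 8.93% of that span. The longest, 1.92 Mb, ran from 76855414 to 78776399, between a reporter at -2.22 in mPGK-E and one at -0.98 in mPGK-B. In the stretch 3 of the 5 longest gaps followed each other closely, from 37216056 to 38861470, on to 40345438, and from 41012528 to 42466616. Only 4 reporters lay between 38 and 42 Mb, and the stretch held 3 of the 7 gaps over 1 Mb on the chromosome.

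In spite of these gaps, the density of the stretch as a whole was close to that of the rest. Integrations per Mb were 1.20, 0.95, 1.40, 1.40, 1.40 and 1.30 in the stretch in mPGK-A to mPGK-F, against 1.02, 1.35, 0.85, 1.42, 1.40 and 1.37 in the rest of chromosome 17. The stretch was denser in 3 of 6 pools, and the ranges overlapped. The difference of 0.041 ± 0.316 per Mb gave an exact two-sided permutation p of 0.719, adjusted 0.75, so no difference was detectable with 6 pools.

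Isolated reporters lay lower than neighboured ones in every pool. The 110 isolated reporters, with no other integration of any pool within 100 kb, averaged -1.39 in mPGK-A, -0.54 in mPGK-B, -0.60 in mPGK-C, -1.41 in mPGK-D, -0.90 in mPGK-E and -1.09 in mPGK-F. The 568 neighboured ones averaged 0.61 in mPGK-A, 0.82 in mPGK-B, 0.52 in mPGK-C, 0.076 in mPGK-D, 0.48 in mPGK-E and 0.065 in mPGK-F. The groups did not overlap, and the difference was -1.41 ± 0.32 log2 units (SD, n = 6 pools), 0.375 times the level of neighboured reporters. The exact two-sided sign-flip permutation test again gave its smallest p of 0.03125, adjusted 0.0521. It was -1.37 ± 0.32 outside the stretch, a check chosen after the values were seen, and -0.84 ± 0.66 when isolation was counted within 50 kb.

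Mean expression was higher in each denser class. Reporters with 1 to 2 others within 100 kb averaged -0.20, those with 3 to 6 others 0.82, and the 33 with 7 or more 2.13. In the rest of the genome the same 4 classes, from none to 7 or more, averaged -1.38, -0.47, 0.49 and 1.37. Over pools, in a comparison added after the values were seen, chromosome 17 minus the rest of the genome was 0.36 ± 0.31 among neighboured reporters, higher in 4 of 6 pools, with an exact permutation p of 0.125. Among reporters with at least 3 others nearby, a subset chosen after the values were seen, the stretch exceeded the rest of chromosome 17 by 1.11 ± 0.73 (SD, n = 6 pools). It was higher in 6 of 6 pools, with an exact permutation p of 0.03125, adjusted 0.0521. Chromatin state at the sites was not measured in these files, and its part in these differences was not tested.

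**Figure D5:**
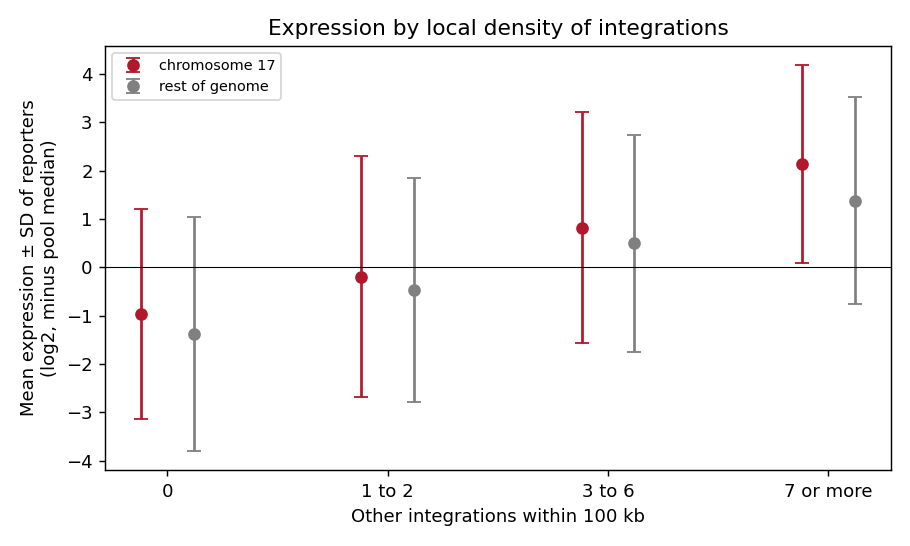
Mean expression ± SD of reporters (y, log2, minus the pool median) by the number of other integrations within 100 kb (x), for chromosome 17 (red) and the rest of the genome (grey). Chromosome 17 runs from -0.96 with no other integration to 2.13 with 7 or more, and the bars overlap between all classes.

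No difference by orientation of the reporter was detectable. The 341 reporters on the plus strand minus the 337 on the minus strand gave 0.68 in mPGK-A, -0.89 in mPGK-B, 0.55 in mPGK-C, 0.030 in mPGK-D, -0.65 in mPGK-E and -0.30 in mPGK-F. In 3 pools plus was higher and in 3 lower, and the mean of -0.097 ± 0.636 (SD, n = 6 pools) had an exact permutation p of 0.75.

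Means of 2 Mb windows took up 17.1% of the variance of single reporters on chromosome 17, rank 11 of 20 chromosomes, a share that also grows with the number of windows. Reporters of different pools within 5 kb of each other, 74 pairs among 120 reporters, had a correlation of 0.28, where 1651 such pairs in the rest of the genome had 0.44. From 5 to 20 kb it was 0.44 over 127 pairs on chromosome 17 and 0.35 in the rest of the genome, and from 500 to 2000 kb it was 0.090 and 0.076. Pairs share reporters and neighbourhoods, so these are descriptions only.

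Within 5 kb, 21 of the 74 pairs lay within 1 log2 unit of each other and 7 differed by more than 4. Among the closer pairs of high reporters, those 299 bases apart on the same strand at 45591350 in mPGK-C and 45591649 in mPGK-F stood at 3.59 and 4.03. The widest mismatch lay 1690 bases apart, at 7444941 in mPGK-B with 2411 RNA reads and at 7446631 in mPGK-E with none on 879 DNA reads. Of the 7 pairs that differed by more than 4, 6 were in opposite orientation. The 36 opposite pairs had a median difference of 2.19 and a correlation of 0.18, and the 38 same-strand pairs a median difference of 1.14 and a correlation of 0.42, a contrast noticed after the values were seen and not tested. At 90334045 and 90334046, listed 1 base apart on opposite strands, mPGK-E gave 2.79 on 4039 DNA reads and mPGK-C gave -2.03 on 212 DNA reads.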

How the data were processed

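Mapped barcodes with raw DNA and RNA counts for each replicate were used as deposited by the authors in a single table, per the file headers. Bowtie2 2.0 and mm9 are named in the submitters' processing notes. The combining of PCRs, the choice of barcodes and the base (0 or 1) of positions are not given in the sources used here. Groups follow the labels.

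The pseudocount was 0.5 RNA reads. Calls per reporter used edgeR 4.0.16 in R 4.3.3 (quasi-likelihood, TMM then shifted to the pool median, filterByExpr, which removed none), adjusted over all 17857 reporters, with DESeq2 1.42.0 as an alternative. Windows used limma 3.58.1 with weights by integrations. Single values were tested over pools by exact sign flips. Scripts ran in Python 3.11.15 and were tested on simulated data. Replicate numbers pair RNA and DNA of the same culture, per the labels, and their deviations correlated at -0.00213 to 0.0575.

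Members and lists were chosen with earlier results of these data known. Named were windows past the threshold and the 5 highest and 5 lowest, the 5 highest and lowest reporters, runs of 8 or more, and the 5 longest gaps and largest steps each way, with same-direction steps at least 2 Mb apart. Other windows and other close pairs were picked after their values were seen. Alternatives covered pseudocount, count minimums, scaling, windows, distances, replicates and pools. Mapping libraries entered through positions only.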

Additional observations from a re-analysis of the deposited data

Results flagged for a closer look

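In the 2 Mb window from 72 Mb, the mean of mPGK-C, -4.90 log2 units against all other reporters of that pool, lay far from the other 4 pools, the nearest of which was mPGK-B at -1.56. The gap was 0.825 of the range over the 5 pools. It was the only such value among 13 sets of pool values looked at, where chance alone marks about 1 in 20. It rested on 2 reporters, 1 of which had no RNA read.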

How the results depend on the processing

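Counts of called reporters were 296 higher and 203 lower. With all pools, alternatives gave 275 to 297 higher and 190 to 226 lower. Without single pools, and so without their reporters, there were 239 to 256 higher and 158 to 180 lower. The differences of stretch and rest, and of isolated and neighboured reporters, kept their direction under every alternative run. They also missed the threshold in each, as in the main setting at 0.0521. None could pass, since beside the other tests no alternative could give an adjusted p below 0.0521. For the stretch the difference ran between 0.79 (without the windows from 36, 44 and 46 Mb) and 1.71 (40 to 50 Mb alone). For isolated reporters it ran between -1.64 and -0.84 (within 200 and 50 kb). Leaving out each pool gave 1.25 to 1.56 for the stretch, where 5 pools allow no exact p below 0.0625. Chromosome 17 minus the rest of the genome turned to -0.18 without 24 to 50 Mb and was otherwise between 0.033 and 0.46. The strand difference turned to 0.093 with at least 10 RNA reads and to 0.066 with medians, and ran from -0.25 to 0.062 without single pools or replicates. Density turned to -0.24 per Mb for 32 to 48 Mb and ran from -0.062 to 0.13 without single pools. Windows called higher numbered 10 with 1 Mb windows, 4 without weights and 5 to 7 without single pools. Windows called lower numbered 1 with at least 10 integrations, without barcodes of several pools, without the lowest 10% of DNA counts and without weights, 4 with a pseudocount of 5, and 0 to 2 without single pools or replicates; the cause was not tested. The fit paired by replicate block called 297 reporters higher and 190 lower, and TMM without the shift called 275 and 226. No integration was listed in several pools, so using such ones once changed nothing. Reporter calls without a replicate were not run, since 1 RNA and 1 DNA library leave no residual degrees of freedom. With 6 pools, no exact p falls below 0.03125.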
